A study of Mus musculus with 96 samples.

Results

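The neuromuscular junction genes followed here are the 5 subunits of the muscle nicotinic acetylcholine receptor (Chrna1, Chrnb1, Chrnd, Chrng and Chrne) and 4 genes that gather the receptor under the nerve ending (Musk, Rapsn, Dok7 and Lrp4). They were chosen by name, as 9 of the 54146 genes in the count table, and all 9 were found. RNA-seq was performed on 96 samples in 35 conditions of C2C12, a mouse myoblast line that stops dividing and fuses into multinucleated myotubes once serum is withdrawn. The question was how these genes differed between proliferating, recently arrested and fused cells, and how each state responded to drugs that block mitochondria.

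The receptor of muscle is a pentamer of subunits that acetylcholine opens to a flow of cations. Fetal and non-innervated muscle builds it from alpha, beta, delta and gamma subunits, and after birth the epsilon subunit takes the place of gamma at the junction. Nerve-derived agrin binds Lrp4, which activates the receptor tyrosine kinase Musk. The adaptor Dok7 binds Musk from inside the cell and is needed for its full activity, and the scaffold protein rapsyn, encoded by Rapsn, ties the receptors together. Transcription of the subunit genes in muscle depends on myogenic basic helix-loop-helix factors, which bind E-box sequences, and nerve-evoked electrical activity silences it outside the junction.

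All cells came from C2C12, and all myoblasts carried a stable lentiviral transgene under a doxycycline-inducible TRE3G promoter, with doxycycline at 300 ng/ml. The proteins were luciferase as the control, LbNOX (a bacterial NADH oxidase placed in the cytosol), mitoLbNOX (its mitochondrial form) and NDI1 (a yeast NADH dehydrogenase). The myoblasts received DMSO, 0.5 μM piericidin (a complex I inhibitor), 0.5 μM antimycin (complex III) or 1 μM oligomycin (ATP synthase) for 10 hr, or 20 μg/ml chloramphenicol (mitochondrial translation) or DMSO for 48 hr. Uridine was present with chloramphenicol; for its DMSO controls this is not given in the sources used here. Antimycin was given to luciferase, LbNOX and mitoLbNOX cells, oligomycin and chloramphenicol to luciferase and LbNOX cells, and piericidin to all 4. Day 1 cells (1 day in low serum) and myotubes (4 days in low serum) were not transduced and were treated for 10 hr, except that 2 sets of myotubes carried an adenovirus for GFP alone or for GFP with LbNOX. Day 1 cells received DMSO, piericidin or oligomycin. Untransduced myotubes received DMSO, piericidin, antimycin, oligomycin, 0.5 μM of the uncoupler BAM15, oligomycin with piericidin, oligomycin with BAM15, or 5% oxygen with DMSO or oligomycin, and the GFP and LbNOX myotubes received DMSO, oligomycin or piericidin. Each condition had 3 samples, except for 2 in NDI1 myoblasts, in GFP myotubes and in the 48 hr myoblasts. No source says whether the replicates came from separate cultures, so p-values measure the spread between these samples, which may be technical. Myoblasts differed from day 1 cells and myotubes in the transgene, doxycycline, serum and cell density as well as in state, and these cannot be told apart.

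Sequences upstream of 4 members are shown because the genes differed in when and how far they rose: Chrng went from near 0 to the second highest level of the 9, Chrne was counted in every library from myotubes and in few others, Chrna1 was the most abundant, and Musk encodes the kinase. RefSeq windows of 250 bases before the annotated start on GRCm38.p6 were found for 6 of the 9 members. Capitals mark E-boxes (CANNTG, read the same on both strands) and, in Chrne, also the N-box core CCGGAA, a site of ETS factors described at synaptic genes. The windows are chr1:87205561-87205810 (plus strand), chr2:73580339-73580588 (minus), chr4:58285712-58285961 (plus) and chr11:70619195-70619444 (minus), each printed 5′ to 3′ on the strand of its gene. Gene positions given elsewhere are those of GENCODE vM21 on the same build. By those positions the whole Chrng window lies inside the gene, and the last bases of the Musk and Chrne windows reach into theirs.
Chrng: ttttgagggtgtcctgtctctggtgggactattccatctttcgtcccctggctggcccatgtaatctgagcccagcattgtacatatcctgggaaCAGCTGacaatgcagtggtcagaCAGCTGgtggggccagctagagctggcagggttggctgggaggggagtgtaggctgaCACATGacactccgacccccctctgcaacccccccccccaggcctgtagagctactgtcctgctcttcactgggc
Chrna1: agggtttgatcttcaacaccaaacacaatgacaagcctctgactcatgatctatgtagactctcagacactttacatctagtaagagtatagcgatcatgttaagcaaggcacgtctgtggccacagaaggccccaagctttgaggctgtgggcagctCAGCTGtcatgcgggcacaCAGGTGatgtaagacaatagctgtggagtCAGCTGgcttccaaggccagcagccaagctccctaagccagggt
Musk: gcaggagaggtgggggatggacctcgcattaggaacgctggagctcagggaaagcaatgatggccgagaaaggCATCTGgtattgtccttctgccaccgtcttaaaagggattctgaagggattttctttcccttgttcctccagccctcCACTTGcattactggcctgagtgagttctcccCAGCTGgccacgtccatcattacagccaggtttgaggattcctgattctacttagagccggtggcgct
Chrne: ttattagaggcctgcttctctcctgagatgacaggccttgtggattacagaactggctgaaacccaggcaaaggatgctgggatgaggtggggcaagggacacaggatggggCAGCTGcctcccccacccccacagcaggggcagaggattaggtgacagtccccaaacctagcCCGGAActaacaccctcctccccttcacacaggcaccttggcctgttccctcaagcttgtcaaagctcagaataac

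The Chrng window held 3 E-boxes, 2 of them with the letters CAGCTG, which begin 155 and 132 bases before the start. Chrna1 also held 3, of which the CAGCTG boxes begin 92 and 44 bases before the start. Musk held 3 with 1 CAGCTG at 68 bases, Chrnb1 held 3 with none of these letters, and the 2 annotated starts of Dok7 held 1 and 0 E-boxes. Chrne held 1 E-box, a CAGCTG at 138 bases, and the N-box at 76 bases on the gene's strand. Of 32851 RefSeq promoter windows of the same length, 66.2% held an E-box, 12.2% held 3 or more, 13% held CAGCTG and 12% held CCGGAA on either strand. Of the 7 windows of members, 1, that of Chrnb1, held TATAAA, on the strand opposite to the gene, against 12.4% of all windows. These are matches of letters and not measured binding.

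Libraries held 6458295 to 15364638 counts (median 10331177). Levels are given as CPM, counts scaled to a common library size over all 96 libraries, and a value after ± is the SE of a log2 fold change unless an SD is named. A gene is said to be called where its adjusted p was under 0.05. Calls lost on leaving out 1 library or in any of the following fits are named: no filter on low counts, only the groups compared in the fit, DESeq2 size factors in place of TMM, the DESeq2 Wald test, or a term for wells at the edge of the plate (the outer-well term). Differentiated muscle markers (Myog, Ckm, Acta1, Myh3, Myh8, Tnnt3 and Mymk, 7 of 7 detected in each state) summed to between 10.2 and 94.2 CPM in the 45 myoblast libraries, 10770 to 11520 in the 9 day 1 libraries and 10280 to 14100 in the 42 myotube libraries. Proliferation markers (Mki67, Top2a, Ccnb1 and Cdk1) summed to between 554 and 1110 CPM in myoblasts, 151 to 202 in day 1 cells and 21.1 to 129 in myotubes. The 4 Schwann cell markers summed to at most 2.08 CPM in any library, with Sox10 at 0 in all myoblast and day 1 libraries, and the 5 motor neuron markers to at most 1.37 CPM, with Slc18a3 at 0 in myoblasts and myotubes and Mnx1 at 0 in day 1 cells and myotubes. The 3 fibroblast markers summed to 0.446 to 6.15, 88.3 to 101 and 29.5 to 44.7 CPM in the 3 states. Markers of nerve and Schwann cells were thus at or near 0. In a bulk sample fewer cells of a type and less RNA per cell cannot be told apart.

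Between proliferating myoblasts and day 1 of low serum, the genes other than Chrne stood higher, where 63.6% of 12765 genes tested were called in either direction. Between day 1 and day 4 the genes of the gamma, delta and alpha subunits and Lrp4 rose further, that of the epsilon subunit went from near 0 to a measurable level, and Rapsn fell. Chrng (ENSMUSG00000026253, chr1:87204657-87212694, plus strand), the fetal gamma subunit, stood at 1.47, 1.13 and 0.458 CPM in the 3 DMSO-treated luciferase myoblast samples, 244, 271 and 262 CPM in day 1 cells and 613, 597 and 639.9 CPM in untransduced myotubes. The states did not overlap. The log2 fold change from day 1 to myotubes was 1.26 ± 0.08 (adjusted p = 7.6e-14). Its neighbour Chrnd (ENSMUSG00000026251, chr1:87190607-87200070, plus strand; 4586 bases upstream) encodes the delta subunit. It moved from 1.38, 2.12 and 2.56 CPM through 134, 148 and 144 to 277, 275 and 278 CPM, again with no overlap, with log2 fold changes of 6.11 ± 0.18 (adjusted p = 2.76e-22) and 0.97 ± 0.12 (adjusted p = 9.22e-08). In the DMSO myoblasts these were 15 to 30 counts of Chrnd and 5 to 16 counts of Chrng per library, so the size of the first step of Chrnd rests on few counts. Chrnd passed the filter on low counts in 10 of the 11 conditions of this fit, and Chrng in 7, those of day 1 cells and myotubes. Chrng thus entered through the cells where it is high, and neither a fold change nor a test is given for its first step.

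Chrna1 (ENSMUSG00000027107, chr2:73563215-73580338, minus strand), whose alpha subunit carries most of the acetylcholine binding site, was already present in myoblasts at 179, 172 and 160.1 CPM. It reached 1165, 1208 and 1219.9 CPM at day 1 and 1535, 1457 and 1478 CPM in myotubes, log2 fold changes of 2.80 ± 0.05 (adjusted p = 1.33e-27) and 0.33 ± 0.05 (adjusted p = 1.34e-06). Chrnb1 (ENSMUSG00000041189, chr11:69784036-69795943, minus strand), the beta subunit, stood at 35.5, 32.2 and 35 CPM in myoblasts, 142, 131 and 146 at day 1 and 151, 151 and 147 in myotubes. It rose by 2.02 ± 0.07 (adjusted p = 9.27e-20) on the log2 scale in the first step, and the second step of 0.11 ± 0.07 (adjusted p = 0.219) did not pass the threshold.

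Chrne (ENSMUSG00000014609, chr11:70614883-70619216, minus strand), the adult epsilon subunit, kept another timing. It had a count in 4 of 45 myoblast libraries (8 counts in all) and in 3 of 9 day 1 libraries (3 counts), but in 42 of 42 myotube libraries, with 15 to 92 counts each. In the DMSO samples it stood at 0, 0.212 and 0 CPM in myoblasts, 0.0934, 0 and 0.0772 CPM at day 1 and 3.81, 5.26 and 4.14 CPM in myotubes. The pooled ratio of myotubes to day 1 cells was 76.6, from 136 against 2 counts, with an exact 95% interval of 20.8 to 639, and that of myotubes to myoblasts was 53.1, from 136 against 3 counts (17.8 to 261); the intervals cover counting error only. Chrne passed the filter only through its 4 myotube conditions in that fit, where it is high, so no test between states is given for it. It overlaps 4930544D05Rik on the opposite strand, and the libraries did not keep the strand, so reads of the 2 genes may be mixed.

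Among the clustering genes, Dok7 (ENSMUSG00000044716, chr5:35056766-35087839, plus strand) and Lrp4 (ENSMUSG00000027253, chr2:91457511-91513779, plus strand) rose most from myoblasts. Dok7 went from 8.56, 6.78 and 8.06 CPM to 55.7, 57.5 and 65.4 at day 1 and 70.6, 61.9 and 60.4 in myotubes, a first step of 2.93 ± 0.12 (adjusted p = 6.17e-19) and a second step of 0.12 ± 0.10 (adjusted p = 0.368) with overlapping samples. Lrp4 went from 9.21, 9.96 and 7.42 to 70.5, 64.2 and 65.9 and 82.1, 87.3 and 83.8 CPM, log2 fold changes of 2.89 ± 0.13 (adjusted p = 7.42e-18) and 0.35 ± 0.11 (adjusted p = 0.013). Lrp4 from day 1 to myotubes lost its call on leaving out any 1 of day 1 DMSO replicates 2 and 3 and myotube DMSO replicates 2 and 3 (0.27 to 0.31).

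Musk (ENSMUSG00000057280, chr4:58285960-58374303, plus strand) was measured at 27.9, 31.6 and 33.2 CPM in myoblasts, 123, 134 and 127 at day 1 and 141, 144 and 124 in myotubes, a rise of 2.04 ± 0.08 (adjusted p = 1.52e-18) followed by a step of 0.10 ± 0.08 (adjusted p = 0.335) with overlapping samples. Rapsn (ENSMUSG00000002104, chr2:91035620-91045729, plus strand) went from 52.3, 50.6 and 49.1 CPM up to 193, 204 and 197 and back to 152, 149 and 149. The steps were 1.95 ± 0.05 (adjusted p = 2.48e-23) and -0.39 ± 0.05 (adjusted p = 2.66e-07), with every myotube sample below every day 1 sample. Rapsn overlaps the noncoding Gm13778 on the opposite strand, with the same limit from unstranded counting as for Chrne.

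Chrne, and Chrng against myoblasts, could be tested only because they were high in 1 group, so counts are given over the members and the genes that passed the filter in at least 1 condition of both states. From myoblasts to day 1, 7 of 7 such members were called higher, against 63.9% of 10921 genes called. From day 1 to myotubes 5 of 8 were called, 4 higher and 1 lower, against 36.3% (35.6% of all genes tested). From myoblasts to myotubes 7 of 7 were called higher, against 69.2% (69.4% of all genes tested). The median log2 fold change of these members was 2.80, 0.22 and 3.05 in the 3 comparisons, beside -0.0587, -0.0034 and -0.0307 over the same genes. The DMSO samples of each state are shared by the 3 comparisons.

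**Figure D1:**
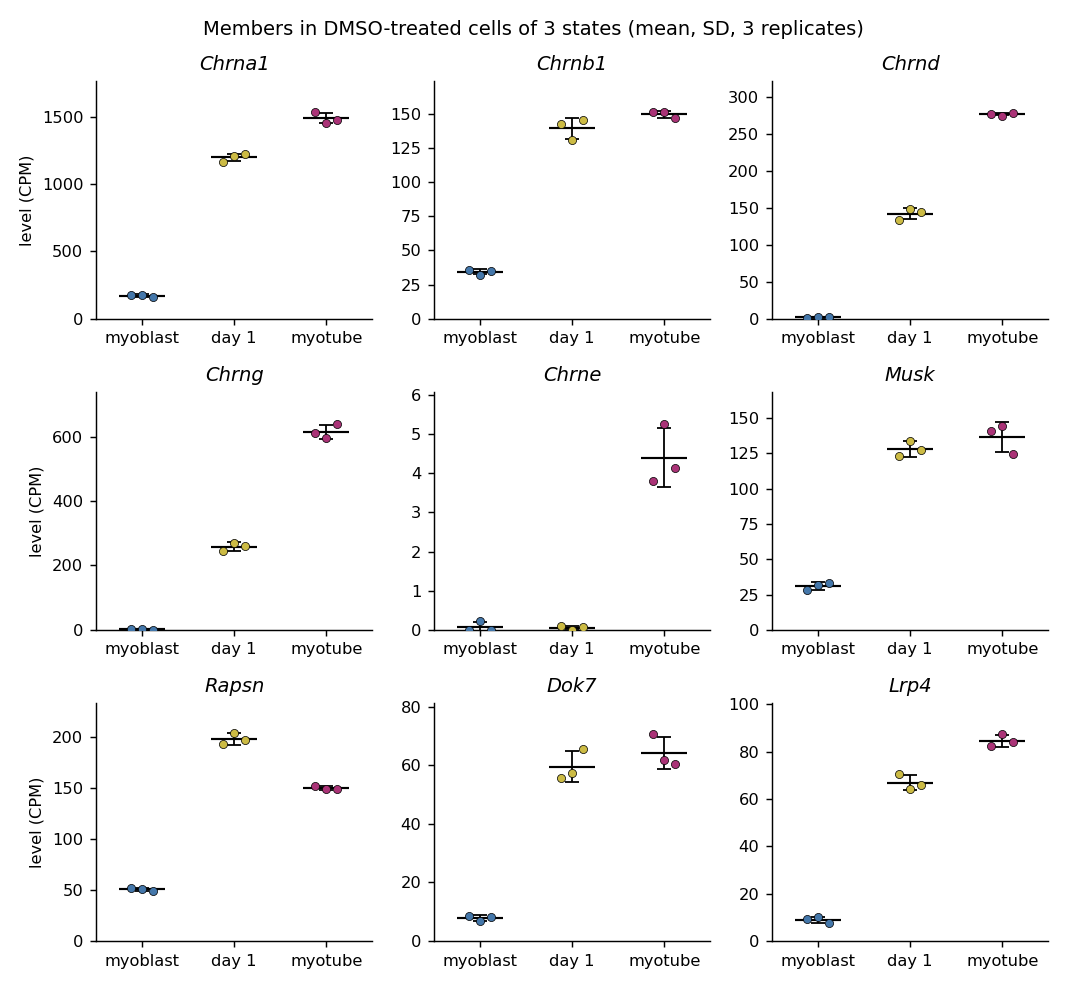
CPM of each member in the DMSO samples of the 3 states (luciferase myoblasts, day 1 cells and untransduced myotubes), 1 panel per gene on a linear axis from 0, with points for samples, a wide line for the mean and whiskers for the SD. Chrng lies at about 1 CPM in myoblasts and between 597 and 639.9 CPM in myotubes, Chrne leaves the floor only in myotubes, and Rapsn is highest at day 1.

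Levels of different genes were compared per kilobase of the longest coding transcript (GENCODE vM21). In DMSO myotubes the order by CPM per kb was Chrna1 (339.7 ± 9.28, mean ± SD, n = 3), Chrng (222 ± 7.86), Chrnd (93.8 ± 0.591), Rapsn (93.5 ± 1.13), Chrnb1 (69.5 ± 1.14), Musk (39.9 ± 3.1), Dok7 (23.1 ± 1.98), Lrp4 (10.7 ± 0.329) and Chrne (2.72 ± 0.47). Chrnd and Rapsn did not differ beyond their spread, and the other neighbours did. Per kilobase, the fetal gamma subunit stood above the adult epsilon subunit in day 4 myotubes, and their samples did not overlap. In myoblasts the order began with Chrna1 (38.9 ± 2.21), Rapsn (31.5 ± 1.01) and Chrnb1 (15.9 ± 0.828), and Chrnd (0.685 ± 0.203) and Chrng (0.367 ± 0.186) came just above Chrne (0.0437 ± 0.0757).

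Genes that work beside the members were called in both directions, in shares to be read against the 63.9% of genes present in both states that were called from myoblasts to day 1 (their median was -0.0587). Of the agrin, ErbB and basal lamina list (13 genes), 5 were present in both states; 2 rose and 1 fell (median 0.41), among the latter Nrg1, which encodes neuregulin, by 0.58 on the log2 scale. Of 19 scaffold and cytoskeleton genes 12 rose and 4 fell (median 0.78), the kinase Src by 1.38. Of 10 transcriptional regulators 6 rose and 3 fell (median 0.70), with the ETS factors Etv4 at -2.12 and Etv5 at -0.73. The genes left out of these counts did not pass the filter in both states, and levels alone, as means of 3, are given for those named. Wnt4, a secreted Wnt, was at 3.48 CPM in myoblasts and 0.653 at day 1. Erbb3, a neuregulin receptor, went from 0.447 to 153 CPM and Colq, the collagen tail that anchors acetylcholinesterase, from 0.115 to 8.13 CPM. The muscle sodium channel Scn4a went from 0.0614 to 20.8 CPM and the syntrophin Sntb1 from 1.1 to 85 CPM. Myog, the E-box factor of differentiating muscle, went from 0.424 to 1458 CPM and Mef2c from 0.186 to 33.9 CPM.

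From day 1 to day 4 the same lists split again, beside 36.3% of genes present in both states called and a median of -0.0034. In the first list 3 rose and 1 fell of 8 (median 0.19), in the scaffold list 9 rose and 2 fell of 21 (median 0.14), and 4 regulators rose and 7 fell of 13 (median -0.23). Dystrophin (Dmd) went from 0.829 to 11.1 CPM. Erbb2 rose by 1.60 and Mef2c by 2.83 on the log2 scale, and Myog fell by 0.92. Of 5 glycosylation enzymes tied to congenital myasthenic syndromes, 2 fell from myoblasts to day 1 (median -0.07, beside 63.9% of genes called) and 2 from day 1 to day 4 (median 0.00, beside 36.3%), with none higher in either step. Of the 4 receptor chaperones tested, 1 rose in that step (median 0.07), and all 4 fell from day 1 to day 4 (median -0.39, beside 36.3%). None of the 11 neuronal nicotinic subunits passed the filter in this fit, and the highest count in any of the 96 libraries was 20, for Chrnb2.

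In luciferase myoblasts, 10 hr of piericidin or oligomycin took Dok7 to less than 2.1 CPM and lowered Musk, Rapsn and Lrp4, whereas antimycin left Dok7 nearer to DMSO. Chrna1 rose under piericidin and antimycin and fell under oligomycin. Dok7 was measured at 8.56, 6.78 and 8.06 CPM with DMSO, 1.44, 1.96 and 0.955 with piericidin, 1.7, 2.06 and 1.14 with oligomycin and 6.34, 6.24 and 4.13 with antimycin. Every piericidin and oligomycin sample lay below every DMSO and antimycin sample. The log2 fold changes were -2.38 ± 0.30 (adjusted p = 4.78e-08) for piericidin, -2.21 ± 0.29 (adjusted p = 1.32e-07) for oligomycin and -0.45 ± 0.25 (adjusted p = 0.128) for antimycin. Although the antimycin samples also lay below those with DMSO, that difference did not pass the threshold. Dok7 passed the low-count filter in 11 of the 13 myoblast conditions of this fit. The luciferase piericidin and oligomycin groups did not pass, so the sizes of these falls rest on few counts.

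Musk, the kinase that Dok7 binds, fell under all 3 inhibitors. It stood at 27.9, 31.6 and 33.2 CPM with DMSO, 12.9, 16.6 and 15.1 with piericidin, 22, 19.3 and 21.7 with antimycin and 15.3, 17 and 12.9 with oligomycin, so no treated sample reached a control. The log2 fold changes were -1.02 ± 0.13 (adjusted p = 6.99e-08), -0.52 ± 0.13 (adjusted p = 0.000665) and -1.01 ± 0.13 (adjusted p = 8.72e-08). The agrin receptor Lrp4 was measured at 9.21, 9.96 and 7.42 CPM with DMSO, 4.43, 6.41 and 6.16 with piericidin, 6.42, 7.96 and 4.69 with oligomycin and 10.9, 7.58 and 10.1 with antimycin. It fell with piericidin (-0.61 ± 0.19, adjusted p = 0.00636), and with oligomycin (-0.45 ± 0.18, adjusted p = 0.0402) and stood at 0.13 ± 0.18 (adjusted p = 0.528) with antimycin. Rapsn stood at 52.3, 50.6 and 49.1 CPM with DMSO; it fell with piericidin to 36.6, 35.6 and 40.3 (-0.39 ± 0.07, adjusted p = 7.26e-06) and with oligomycin to 44.1, 39.6 and 41.5 (-0.26 ± 0.07, adjusted p = 0.0012), and it rose with antimycin to 58.6, 60.5 and 55.9 (0.24 ± 0.06, adjusted p = 0.00192). None of these Rapsn groups overlapped the controls. Lrp4 under piericidin lost its call without piericidin replicate 1 (-0.47). Lrp4 under oligomycin lost its call on leaving out any 1 of DMSO replicates 1 and 2 and oligomycin replicates 1 and 3 (-0.45 to -0.30), and with no filter, the DESeq2 Wald test or only the groups compared (adjusted p = 0.0597 to 0.112). Rapsn under antimycin lost its call with no filter (adjusted p = 0.167).

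Of the receptor subunits, Chrna1 stood at 179, 172 and 160.1 CPM with DMSO, 202, 222 and 213 with piericidin and 251, 249.6 and 227 with antimycin, and both treated groups lay wholly above the controls. The log2 fold changes were 0.36 ± 0.06 (adjusted p = 1.91e-06) and 0.55 ± 0.06 (adjusted p = 7.08e-10). With oligomycin it stood at 149.6, 161 and 134 CPM, where 1 sample overlapped the controls, and the fall of -0.19 ± 0.06 (adjusted p = 0.00616) passed the threshold. Chrnb1 was 35.5, 32.2 and 35 CPM with DMSO and 30.0, 24.8 and 25.3 with oligomycin, below all controls (-0.34 ± 0.10, adjusted p = 0.00592), and its values of 0.02 with piericidin and 0.14 with antimycin were not called. Chrnd rose with piericidin from 1.38, 2.12 and 2.56 to 4.54, 5.98 and 4.88 CPM (1.38 ± 0.39, adjusted p = 0.00279), 15 to 30 against 41 to 55 counts. With antimycin it spread over 5.83, 3.79 and 1.83 CPM, overlapping the controls (0.95 ± 0.39, adjusted p = 0.0349). Chrnd passed the low-count filter in 5 of the 13 myoblast conditions of this fit and not in the luciferase DMSO group. Chrng passed only through the NDI1 DMSO group, was not called with any inhibitor, and stayed at or below 1.89 CPM here, and Chrne was not tested in myoblasts. Chrna1 under oligomycin lost its call without oligomycin replicate 3 (-0.13), and with only the groups compared (adjusted p = 0.051). Chrnd under antimycin lost its call on leaving out any 1 of antimycin replicates 1 and 2 and DMSO replicates 1 and 2 (0.52 to 0.98), and with no filter, the outer-well term or only the groups compared (adjusted p = 0.0702 to 0.123).

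The calls were 6 of 8 members tested for piericidin (2 higher, 4 lower), 4 of 8 for antimycin (3 higher, 1 lower) and 6 of 8 for oligomycin (all lower), where 61.7%, 63.2% and 50.8% of 11978 genes were called. The 3 comparisons share their DMSO samples. Marker sums moved in the same samples. Proliferation markers summed to 1051 to 1100.0 CPM with DMSO, 879 to 944 with piericidin, 643 to 687 with antimycin and 868 to 904 with oligomycin, and differentiated muscle markers to 17.1 to 21.4, 26.7 to 32.5, 82 to 94.2 and 22.2 to 30.8 CPM. Of the 7 muscle markers only Acta1, skeletal actin, passed the filter in myoblasts, and it rose by 0.86, 2.44 and 0.65 on the log2 scale. The part of these shifts in the members' changes was not tested.

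**Figure D2:**
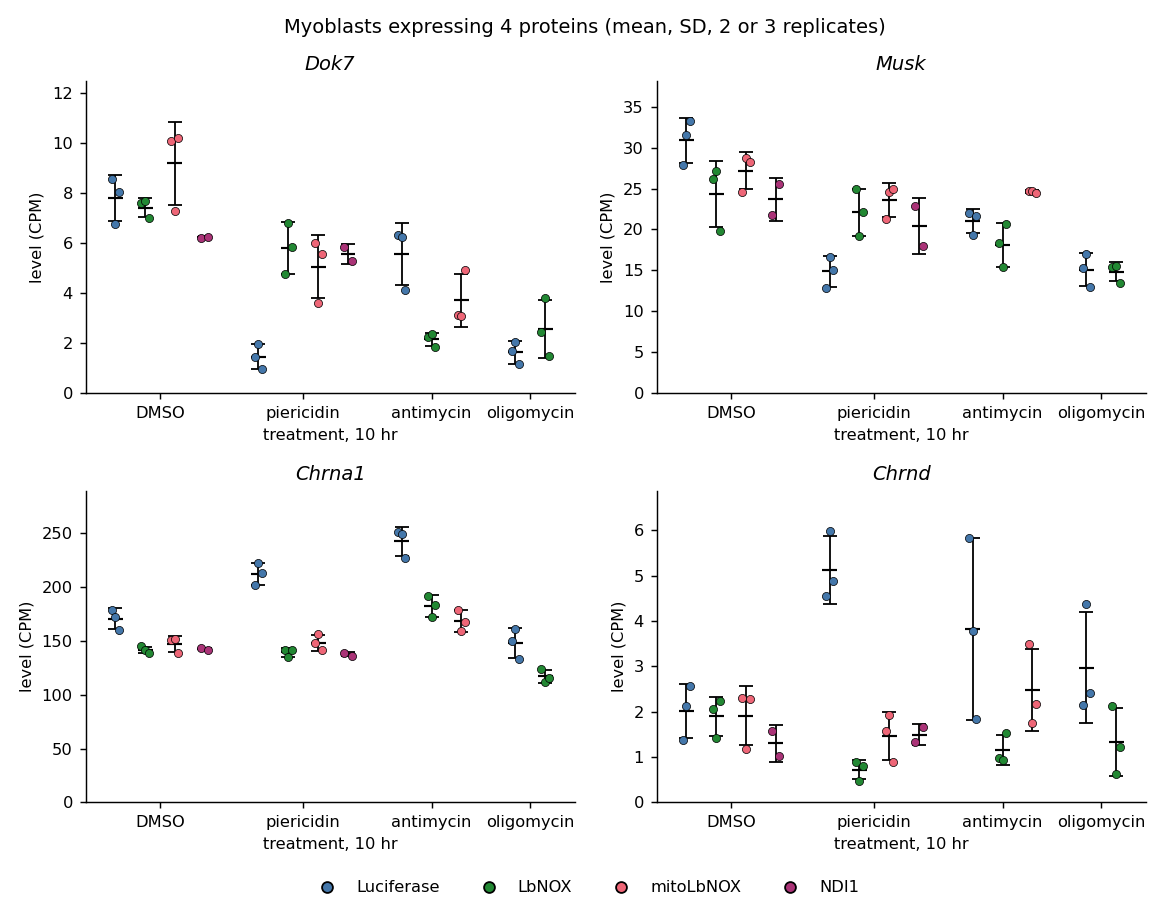
CPM of Dok7, Musk, Chrna1 and Chrnd in the myoblasts treated for 10 hr, by treatment and, in colour, by protein, with points for samples, a line for the mean and whiskers for the SD. Piericidin takes Dok7 from between 6.78 and 8.56 CPM to between 0.955 and 1.96 CPM in luciferase cells, and the LbNOX and NDI1 samples with piericidin stay between 4.75 and 6.82 CPM.

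Of the 6 agrin, ErbB and basal lamina genes tested in myoblasts, 3 rose and 2 fell with piericidin (median 0.17), and 4 with antimycin (median 0.85) and 3 with oligomycin (median 0.08) rose with none lower, beside all-gene medians of -0.004, -0.0048 and -0.0149. The shares of all genes called were 61.7%, 63.2% and 50.8%. Agrn, the gene of agrin, fell by 0.69 with piericidin. Wnt4 fell by 0.88 with piericidin and stood at 1.40 with antimycin and 0.67 with oligomycin, both called. Of 19 scaffold genes, 6 rose and 6 fell with piericidin (median -0.04), 7 and 4 with antimycin (0.26) and 3 and 2 with oligomycin (-0.12), and the Src-family kinase Fyn rose with all 3 (2.52, 2.02 and 2.00). Of 10 transcriptional regulators, 5 rose and 3 fell with piericidin (0.27), 6 and 2 with antimycin (0.39) and 3 and 3 with oligomycin (-0.02). The myogenic factor Myf5 rose by 2.39 with piericidin and 3.62 with antimycin, Hdac4, a repressor of MEF2 factors, by 1.56, 1.25 and 1.56, and Myod1 fell by 0.85 with oligomycin. Of the 5 glycosylation enzymes 3, 4 and 2 were called with the 3 inhibitors (medians 0.08, -0.12 and -0.12), and of the 4 chaperones 3, 4 and 4 (medians -0.01, 0.00 and -0.32), beside the 61.7%, 63.2% and 50.8% of all genes. Among the chaperones was Hspa5, the ER chaperone BiP, at 2.06 with piericidin.

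A direct comparison of piericidin with antimycin in luciferase cells, chosen after their values were seen, gave 5 of 8 members lower with piericidin, against 37.2% of all genes called. The log2 difference of Dok7 was -1.93 ± 0.31 (adjusted p = 7.43e-06), and Lrp4 stood at -0.74 ± 0.19 (adjusted p = 0.0026), Rapsn at -0.63 ± 0.07 (adjusted p = 5.8e-09) and Musk at -0.49 ± 0.13 (adjusted p = 0.0041). Chrna1 also differed, at -0.19 ± 0.06 (adjusted p = 0.00789). Piericidin A and antimycin A were each given at 0.5 μM and for 10 hr, and block different complexes. Chrna1 between the 2 inhibitors lost its call without antimycin replicate 2 (-0.15), and with no filter (adjusted p = 0.0615).

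In LbNOX myoblasts Dok7 was 7.6, 7.68 and 6.99 CPM with DMSO and 4.75, 6.82 and 5.83 with piericidin (-0.35 ± 0.25, adjusted p = 0.433), and Musk was 26.1, 27.2 and 19.8 and 24.9, 19.1 and 22.2 CPM (-0.14 ± 0.13, adjusted p = 0.566). For Musk the groups overlapped, and for Dok7 the piericidin samples lay below the controls by less than the threshold of the test required. No member passed the test in LbNOX cells with piericidin, against 8.87% of all genes; edgeR gave 2 of 8 an unadjusted p under 0.05 (Rapsn and Chrnd), beside 2763 of 11978 genes, and DESeq2 called 0 of the 8 and 1087 genes in all. The difference between the piericidin responses of LbNOX and luciferase cells was called for 6 of 8 members, against 44.3% of all genes. It was 2.02 ± 0.39 (adjusted p = 9.49e-05) for Dok7, 0.92 ± 0.26 (adjusted p = 0.00412) for Lrp4, 0.88 ± 0.18 (adjusted p = 0.000189) for Musk, 0.58 ± 0.09 (adjusted p = 7.73e-06) for Rapsn, -0.37 ± 0.08 (adjusted p = 0.000241) for Chrna1 and -2.72 ± 0.60 (adjusted p = 0.000438) for Chrnd. Chrnd passed the low-count filter in 5 of the 13 conditions and not with DMSO in luciferase cells. Its lowest mean over the 35 conditions was in LbNOX cells with piericidin (0.72 CPM). For Dok7 the luciferase piericidin group did not pass. The sizes of the differences for Chrnd and Dok7 thus rest on few counts.

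NDI1 and mitoLbNOX cells gave 2 further pictures. With NDI1, Dok7 stood at 6.19 and 6.26 CPM with DMSO and 5.85 and 5.28 with piericidin (-0.16 ± 0.31, adjusted p = 0.913), and Musk at 21.8 and 25.5 and 22.9 and 18 (-0.21 ± 0.15, adjusted p = 0.712). edgeR called none of the 8 members, against 0.00835% of all genes (1 gene); none had an unadjusted p under 0.05, beside 1004 of 11978 genes, and DESeq2 called 0 of the 8 and 6 genes in all. In mitoLbNOX cells Dok7 fell from 10.1, 7.27 and 10.2 to 5.99, 3.62 and 5.56 CPM with piericidin, every treated sample below every control (-0.88 ± 0.25, adjusted p = 0.0195). Smaller calls were made in that comparison, Chrnb1 at -0.30 ± 0.10 (adjusted p = 0.0493) and Rapsn at 0.20 ± 0.06 (adjusted p = 0.0442), for 3 of 8 members against 11.2% of all genes. The difference of these responses from that of luciferase cells was tested for LbNOX only. Dok7 in mitoLbNOX cells lost its call on leaving out any 1 of DMSO replicates 1 and 3 and piericidin replicate 2 (-0.82 to -0.68). Chrnb1 in mitoLbNOX cells lost its call on leaving out any 1 of DMSO replicates 1, 2 and 3 and piericidin replicates 1 and 2 (-0.36 to -0.23), and with DESeq2 size factors, no filter, the DESeq2 Wald test, the outer-well term or only the groups compared (adjusted p = 0.0521 to 0.176). Rapsn in mitoLbNOX cells lost its call on leaving out any 1 of DMSO replicates 1 and 3 and piericidin replicates 1 and 3 (0.14 to 0.18), and with DESeq2 size factors, no filter, the DESeq2 Wald test or only the groups compared (adjusted p = 0.0552 to 0.575).

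With antimycin, Dok7 fell in LbNOX and mitoLbNOX cells. In LbNOX cells it went from 7.6, 7.68 and 6.99 CPM with DMSO to 2.23, 2.36 and 1.83 with antimycin (-1.74 ± 0.28, adjusted p = 6.89e-06), and in mitoLbNOX cells from 10.1, 7.27 and 10.2 to 3.14, 3.07 and 4.94 (-1.27 ± 0.26, adjusted p = 0.000158), without overlap in either. Compared with luciferase cells, the antimycin response of Dok7 in LbNOX cells differed by -1.29 ± 0.38 (adjusted p = 0.00522) on the log2 scale. Chrnd differed too, at -1.60 ± 0.58 (adjusted p = 0.0229); these were 2 of 8 members, both lower, against 51.5% of all genes. Within LbNOX cells 5 of 8 members were called with antimycin, against 46.1%: Chrna1 rose (0.42 ± 0.06, adjusted p = 2.69e-07), as did Chrnb1 (0.45 ± 0.10, adjusted p = 0.000486) and Rapsn (0.36 ± 0.07, adjusted p = 3.73e-05), and Dok7 and Musk fell, the latter at -0.37 ± 0.13 (adjusted p = 0.0178). Within mitoLbNOX cells 3 of 8 were called, against 47.7%: Chrna1 (0.21 ± 0.06, adjusted p = 0.00243) and Rapsn (0.39 ± 0.07, adjusted p = 8.94e-06) rose and Dok7 fell. Musk stood at -0.13 ± 0.13 (adjusted p = 0.434) there. Chrnd in the comparison of antimycin responses lost its call on leaving out any 1 of LbNOX antimycin replicates 1 and 2, luciferase antimycin replicate 1, LbNOX DMSO replicate 3 and luciferase DMSO replicate 1 (-1.49 to -1.17), and with no filter (adjusted p = 0.0614). Musk in LbNOX cells lost its call on leaving out any 1 of antimycin replicate 2 and DMSO replicates 1 and 2 (-0.32 to -0.28). Chrna1 in mitoLbNOX cells lost its call with no filter (adjusted p = 0.0613).

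Oligomycin lowered 5 of the 8 members tested in LbNOX cells, against 35.2% of all genes called. Dok7 went from 7.6, 7.68 and 6.99 to 2.42, 3.79 and 1.5 CPM (-1.51 ± 0.28, adjusted p = 6.16e-05), Musk from 26.1, 27.2 and 19.8 to 15.4, 15.5 and 13.5 (-0.68 ± 0.13, adjusted p = 0.000121) and Chrna1 from 145, 141 and 139 to 124, 112 and 116 (-0.23 ± 0.06, adjusted p = 0.00146), none with overlap. Chrnb1 (-0.36 ± 0.10, adjusted p = 0.00735) and Rapsn (-0.23 ± 0.07, adjusted p = 0.00697) also fell. For the difference between the oligomycin responses of LbNOX and luciferase cells edgeR called no member, against 7.98% of all genes; none had an unadjusted p under 0.05, beside 2451 of 11978 genes, and DESeq2 called none of them and 949 genes in all. The difference for Dok7 was 0.70 ± 0.40 (adjusted p = 0.344) and for Musk 0.34 ± 0.18 (adjusted p = 0.313), so differences of these sizes were not resolved. Chrnb1 under oligomycin lost its call without oligomycin replicate 2 (-0.27). Rapsn under oligomycin lost its call without DMSO replicate 1 (-0.16), and with no filter or only the groups compared (adjusted p = 0.0868 to 0.105).

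Without an inhibitor, Chrna1 was lower with each of the 3 NADH-oxidizing proteins than with luciferase: 179, 172 and 160.1 CPM with luciferase, 145, 141 and 139 with LbNOX, 151, 152 and 139 with mitoLbNOX and 143 and 142 with NDI1. None of these groups overlapped luciferase. The log2 differences were -0.26 ± 0.06 (adjusted p = 0.00403), -0.21 ± 0.06 (adjusted p = 0.0388) and -0.26 ± 0.06 (adjusted p = 0.0107). Rapsn was lower with LbNOX (-0.39 ± 0.07, adjusted p = 0.000284) and with NDI1 (-0.35 ± 0.07, adjusted p = 0.00258), and stood at -0.19 ± 0.06 (adjusted p = 0.16) with mitoLbNOX. The counts were 2 of 8 members against 2.66% of all genes for LbNOX, 1 of 8 against 1.74% for mitoLbNOX and 2 of 8 against 4.58% for NDI1. The lines were made separately, so the protein and the line cannot be told apart, and the 3 comparisons share the luciferase samples. Chrna1 with mitoLbNOX lost its call on leaving out any 1 of luciferase DMSO replicates 1 and 2 and mitoLbNOX DMSO replicates 1, 2 and 3 (-0.23 to -0.18), and with DESeq2 size factors, no filter or only the groups compared (adjusted p = 0.053 to 0.146). Chrna1 with NDI1 lost its call on leaving out any 1 of luciferase DMSO replicate 1 and NDI1 DMSO replicates 1 and 2 (-0.28 to -0.22), and with no filter or only the groups compared (adjusted p = 0.0573 to 0.0812). Rapsn with LbNOX lost its call with only the groups compared (adjusted p = 0.0604). Rapsn with NDI1 lost its call without NDI1 DMSO replicate 2 (-0.30), and with no filter or only the groups compared (adjusted p = 0.079 to 0.15).

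Responses to the same inhibitor were compared between myotubes and luciferase myoblasts, by a test of the difference of the 2 responses. Chrng and Chrne passed the filter in no myoblast condition of this fit and are left out. Dok7 passed in 9 of the 11 conditions, and not in luciferase myoblasts with piericidin or oligomycin. For piericidin 6 of 7 members differed, against 50.9% of 10953 genes present in both states (46.5% of all genes tested): the myotube response was above that of myoblasts for Dok7 (2.26 ± 0.22, adjusted p = 1.26e-09), Musk (1.10 ± 0.12, adjusted p = 2.15e-08), Rapsn (0.71 ± 0.07, adjusted p = 3.33e-09) and Lrp4 (0.69 ± 0.20, adjusted p = 0.00477), and below it for Chrnd (-1.66 ± 0.27, adjusted p = 1.07e-05) and Chrna1 (-0.52 ± 0.07, adjusted p = 1.54e-07). For oligomycin 4 of 7 differed, all with the myotube response above, against 32.1% (29.0% of all genes tested): Dok7 (2.59 ± 0.21, adjusted p = 9.93e-11), Musk (0.79 ± 0.12, adjusted p = 1.37e-05), Chrnb1 (0.41 ± 0.10, adjusted p = 0.004) and Rapsn (0.21 ± 0.07, adjusted p = 0.0256). For antimycin 4 of 7 differed, a share near the 52.5% of genes present in both states (47.9% of all genes tested). Musk (0.65 ± 0.12, adjusted p = 5.93e-05) and Dok7 (0.56 ± 0.18, adjusted p = 0.00978) were above, and Chrna1 (-0.68 ± 0.07, adjusted p = 1.13e-09) and Chrnd (-1.22 ± 0.29, adjusted p = 0.000833) below. Lrp4 under piericidin lost its call without, in all 4 groups, replicate 1 (0.52). Chrnb1 under oligomycin lost its call without, in all 4 groups, replicate 3 (0.35), and with the outer-well term (adjusted p = 0.107). Rapsn under oligomycin lost its call on leaving out of all 4 groups any 1 of replicates 1, 2 and 3 (0.14 to 0.28), and with no filter, the outer-well term or only the groups compared (adjusted p = 0.0657 to 0.44). Dok7 under antimycin lost its call on leaving out of all 4 groups any 1 of replicates 1 and 3 (0.28 to 0.64), and with the outer-well term (adjusted p = 0.0509). Chrnd under antimycin lost its call without, in all 4 groups, replicate 1 (-0.61).

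In untransduced myotubes oligomycin raised Dok7 and lowered Lrp4, Chrna1 and Musk. Dok7 stood at 70.6, 61.9 and 60.4 CPM with DMSO and 79.2, 83.4 and 84.6 with oligomycin (0.40 ± 0.07, adjusted p = 0.000113), Lrp4 at 82.1, 87.3 and 83.8 and 72.6, 63.8 and 62.3 (-0.31 ± 0.08, adjusted p = 0.0025), Chrna1 at 1535, 1457 and 1478 and 1201, 1188 and 1227 (-0.27 ± 0.03, adjusted p = 1.16e-08) and Musk at 141, 144 and 124 and 116, 116 and 109 (-0.23 ± 0.06, adjusted p = 0.00625). None of these pairs of groups overlapped. These were 4 of 9 members, against 33.3% of all genes. The other 4 receptor subunits and Rapsn were not called, and their log2 fold changes lay between -0.46 (Chrne) and 0.06 (Chrnb1). By their means, the muscle markers split in the same samples. Myog, Acta1 (6240 to 7746 CPM) and Myh8 were higher with oligomycin, and Ckm, Myh3, Tnnt3 and Mymk (751 to 583 CPM) were lower. The part of these shifts in the members' changes was not tested.

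Piericidin and antimycin gave another set of 4 calls in myotubes, 3 receptor subunits and rapsyn. Chrnd was 277, 275 and 278 CPM with DMSO, 198, 231 and 221 with piericidin (-0.33 ± 0.05, adjusted p = 2.17e-05) and 226, 222 and 219.9 with antimycin (-0.30 ± 0.05, adjusted p = 6e-05). Chrng was 613, 597 and 639.9 CPM with DMSO, 482, 513 and 515 with piericidin (-0.27 ± 0.04, adjusted p = 2.02e-05) and 548, 528 and 529 with antimycin (-0.19 ± 0.04, adjusted p = 0.00121). Both genes lay below all controls in all 6 treated samples, and so did Chrna1, at -0.21 ± 0.03 (adjusted p = 5.3e-06) and -0.18 ± 0.03 (adjusted p = 2.25e-05). Rapsn rose from 152, 149 and 149 to 185, 169 and 183 CPM with piericidin (0.27 ± 0.05, adjusted p = 0.000803) and to 169, 165 and 167 with antimycin (0.17 ± 0.05, adjusted p = 0.0262). The background was 8.99% of 12491 genes for piericidin and 12.9% for antimycin. With antimycin the muscle markers split in the same samples. Acta1 (0.38), Myh8 (0.33) and Ckm (0.24) were higher, Mymk (-0.33), Myog (-0.23) and Tnnt3 (-0.16) were lower, and Myh3 was not called. The part of these shifts in the members' changes was not tested. Dok7, which fell with piericidin in luciferase myoblasts, stood at 61.8, 53.7 and 56 CPM in myotubes, -0.15 ± 0.07 (adjusted p = 0.23). Chrna1 and Chrnd, which rose with piericidin in luciferase myoblasts, are among the genes that fell here. Rapsn under antimycin lost its call on leaving out any 1 of antimycin replicates 1, 2 and 3 and DMSO replicates 1, 2 and 3 (0.16 to 0.18), and with no filter (adjusted p = 0.261).

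With piericidin or the uncoupler BAM15 added to oligomycin, Dok7 was lower than with oligomycin alone. It stood at 79.2, 83.4 and 84.6 CPM with oligomycin, 58.9, 60.4 and 55.8 with oligomycin and piericidin (-0.50 ± 0.07, adjusted p = 1.14e-05 against oligomycin) and 49.2, 57.7 and 54.5 with oligomycin and BAM15 (-0.59 ± 0.07, adjusted p = 7.3e-07), all 6 combined samples below every oligomycin sample. Musk was 116, 116 and 109 CPM with oligomycin and higher with added piericidin, at 133, 128 and 141 (0.24 ± 0.06, adjusted p = 0.00779), and with added BAM15, at 123, 129 and 128 (0.19 ± 0.06, adjusted p = 0.0289). Rapsn was higher with both additions (0.21 ± 0.05, adjusted p = 0.00443 and 0.20 ± 0.05, adjusted p = 0.00485). Chrnd was lower with both, at -0.25 ± 0.05 (adjusted p = 0.000242) and -0.13 ± 0.05 (adjusted p = 0.0429), Chrng was lower with piericidin (-0.19 ± 0.04, adjusted p = 0.00071) and Chrna1 higher with BAM15 (0.11 ± 0.03, adjusted p = 0.00167). Each addition had 5 of 9 members called, against 20.9% and 26.1% of all genes. BAM15 alone had 3 of 9, against 25.4%, all small: Rapsn (0.17 ± 0.05, adjusted p = 0.0169), Lrp4 (-0.23 ± 0.08, adjusted p = 0.0275) and Chrna1 (-0.08 ± 0.03, adjusted p = 0.0179). The comparisons with oligomycin alone share its 3 samples. Musk with added BAM15 lost its call on leaving out any 1 of oligomycin with BAM15 replicates 2 and 3 and oligomycin replicates 1 and 3 (0.15 to 0.18), and with no filter (adjusted p = 0.129). Rapsn with added BAM15 lost its call with no filter (adjusted p = 0.0652). Chrnd with added BAM15 lost its call on leaving out any 1 of oligomycin with BAM15 replicates 1, 2 and 3 and oligomycin replicates 1 and 2 (-0.14 to -0.11), and with no filter, the outer-well term or only the groups compared (adjusted p = 0.0796 to 0.247). Chrna1 with added BAM15 lost its call with no filter (adjusted p = 0.117). Rapsn with BAM15 alone lost its call without BAM15 replicate 2 (0.13), and with no filter or the outer-well term (adjusted p = 0.101 to 0.259). Lrp4 with BAM15 alone lost its call on leaving out any 1 of BAM15 replicates 1 and 3 and DMSO replicates 2 and 3 (-0.24 to -0.19), and with the outer-well term (adjusted p = 0.0602). Chrna1 with BAM15 alone lost its call on leaving out any 1 of BAM15 replicate 1 and DMSO replicate 1 (-0.07), and with no filter (adjusted p = 0.123).

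In myotubes kept in 5% oxygen overnight and during treatment, the adult subunit gene stood lower. Chrne passed the low-count filter in 8 of the 9 myotube conditions of this fit. Its lowest mean (1.62 CPM) was that of 5% oxygen with DMSO, so the size of the fall rests on few counts. With oligomycin in both, Chrne was not called between 5% and ambient oxygen. Chrne was 3.81, 5.26 and 4.14 CPM in ambient oxygen and 1.58, 1.43 and 1.85 in 5% oxygen, without overlap (-1.38 ± 0.27, adjusted p = 0.000408), while the fetal Chrng stood at 613, 597 and 639.9 and 628, 612 and 576 CPM (0.02 ± 0.04, adjusted p = 0.738). Lrp4 rose from 82.1, 87.3 and 83.8 to 105, 109 and 91.5 CPM (0.32 ± 0.08, adjusted p = 0.003) and Chrna1 fell from 1535, 1457 and 1478 to 1315, 1299 and 1267 (-0.15 ± 0.03, adjusted p = 6.71e-05). These were 3 of 9 members, against 22.1% of all genes. In the same samples the proliferation markers summed to 21.1 to 22.8 CPM against 103 to 129 in ambient oxygen, with all 4 lower, and the muscle markers to 12350.0 to 13310.0 against 11320.0 to 11570.0 CPM. The 7 muscle markers split, with Myh8 (1.12), Myog (0.46) and Acta1 (0.39) higher, Myh3 (-0.26) and Mymk (-0.12) lower and Ckm and Tnnt3 not called; the part of either list in the members' changes was not tested. Of the 14 regulators 3 rose and 1 fell (median 0.08, beside 0.0229 over all genes, 22.1% of which were called), with Hdac9 at 1.43 and Myog as above, and of 10 agrin, ErbB and basal lamina genes 1, acetylcholinesterase (Ache), rose, by 1.09 (list median 0.12).

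Oligomycin had a different effect in 5% oxygen. Dok7 stood at 71.7, 65.9 and 61.4 CPM with DMSO and 68.1, 70.1 and 60.8 with oligomycin (0.01 ± 0.07, adjusted p = 0.976), overlapping, and Musk at 126, 124 and 119.7 and 146, 162 and 137 (0.28 ± 0.06, adjusted p = 0.00875), with all oligomycin samples above. Rapsn (0.21 ± 0.05, adjusted p = 0.0152) and Chrnd (0.18 ± 0.05, adjusted p = 0.0249) were the other called members, 3 of 9 against 4.26% of all genes. The difference between the oligomycin responses in 5% and ambient oxygen, a test chosen after these values were seen, was called for 4 of 9 members, against 17.4%: Musk (0.50 ± 0.09, adjusted p = 0.000178), Rapsn (0.26 ± 0.07, adjusted p = 0.0118), Chrna1 (0.23 ± 0.04, adjusted p = 5.99e-05) and Dok7 (-0.39 ± 0.10, adjusted p = 0.00856). Set directly against oligomycin in ambient oxygen, 7 of 9 members differed, 6 higher and Dok7 lower, against 33.3%. Of the clustering genes, Lrp4 differed by 0.56 ± 0.08 (adjusted p = 2.55e-06), Musk by 0.40 ± 0.06 (adjusted p = 1.47e-05), Rapsn by 0.24 ± 0.05 (adjusted p = 0.000599) and Dok7 by -0.30 ± 0.07 (adjusted p = 0.0024). Of the subunits, Chrnd differed by 0.20 ± 0.05 (adjusted p = 0.0011), Chrng by 0.16 ± 0.04 (adjusted p = 0.00158) and Chrna1 by 0.07 ± 0.03 (adjusted p = 0.0291). Musk within 5% oxygen lost its call without 5% oxygen oligomycin replicate 2 (0.22). Rapsn within 5% oxygen lost its call on leaving out any 1 of 5% oxygen DMSO replicate 1 and 5% oxygen oligomycin replicates 2 and 3 (0.20), and with no filter or only the groups compared (adjusted p = 0.0621 to 0.211). Chrnd within 5% oxygen lost its call on leaving out any 1 of 5% oxygen DMSO replicates 2 and 3 and 5% oxygen oligomycin replicates 1 and 3 (0.15 to 0.18), and with no filter or only the groups compared (adjusted p = 0.0957 to 0.325). Rapsn in the comparison of oligomycin responses lost its call with no filter (adjusted p = 0.117). Chrng against oligomycin lost its call with no filter (adjusted p = 0.07). Chrna1 against oligomycin lost its call on leaving out any 1 of 5% oxygen oligomycin replicates 1, 2 and 3 and oligomycin replicates 1, 2 and 3 (0.04 to 0.08), and with DESeq2 size factors, no filter, the DESeq2 Wald test or only the groups compared (adjusted p = 0.0834 to 0.734).

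**Figure D3:**
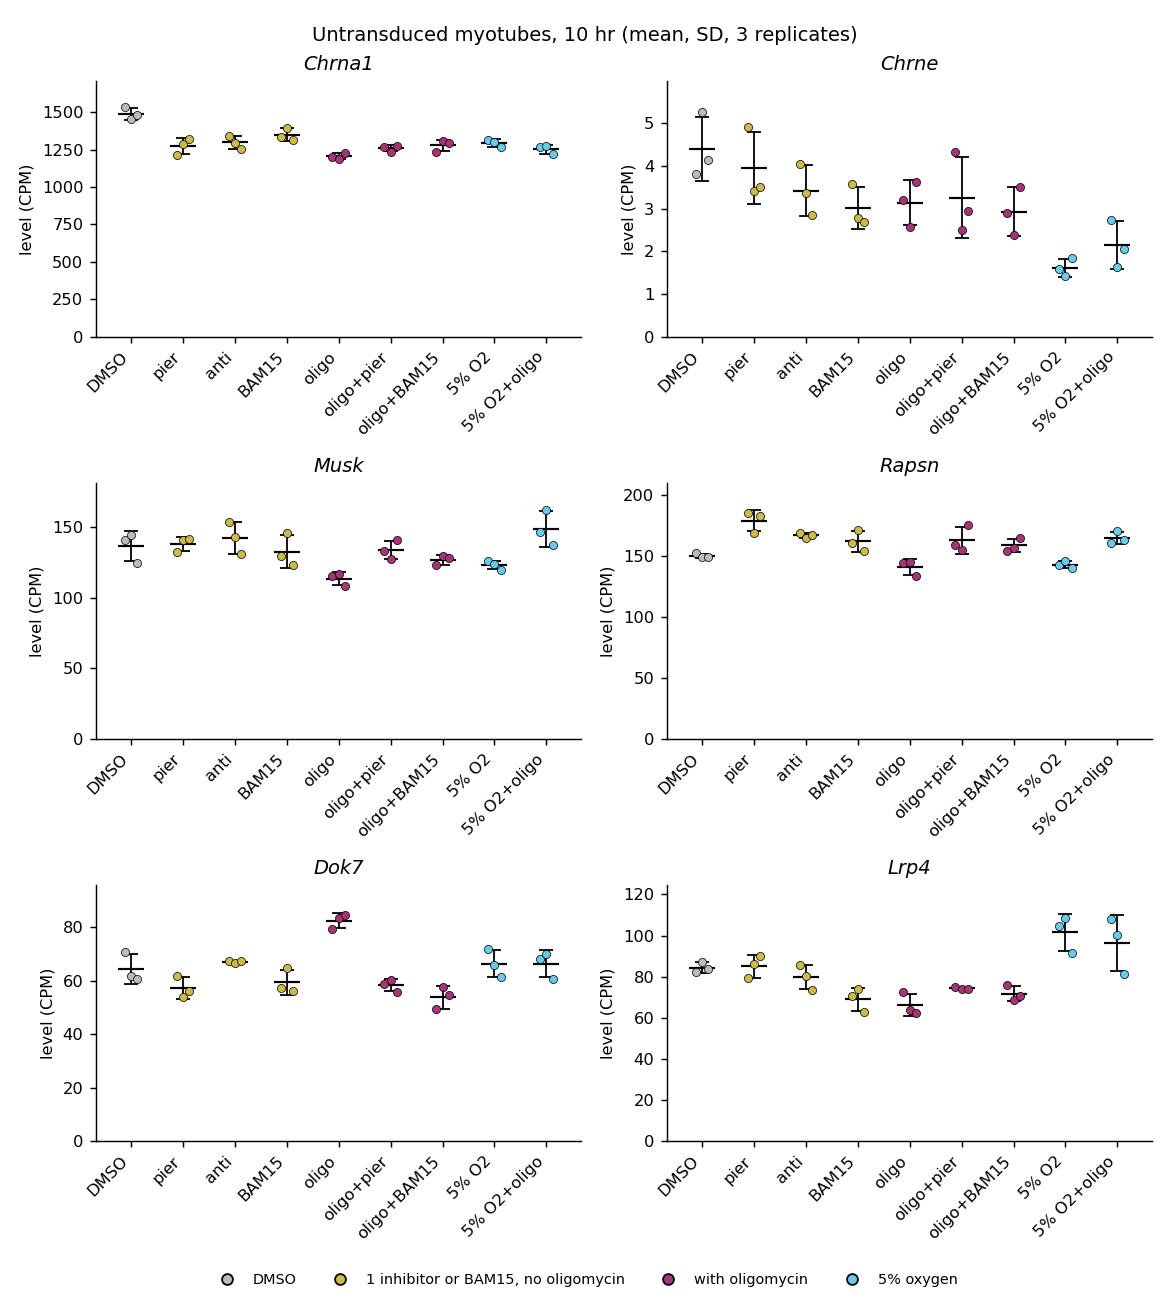
CPM of Chrna1, Chrne, Musk, Rapsn, Dok7 and Lrp4 in the 9 conditions of untransduced myotubes (pier, piericidin; anti, antimycin; oligo, oligomycin), with points for samples, a line for the mean and whiskers for the SD. Dok7 reaches 79.2 to 84.6 CPM with oligomycin alone, Chrne lies at 1.43 to 1.85 CPM in 5% oxygen with DMSO, and Lrp4 is highest in 5% oxygen.

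With oligomycin in myotubes, of the 14 regulators 5 rose and 5 fell (median -0.16, beside -0.0058 over all genes, 33.3% of which were called): Etv5 (1.58), Myf5 (1.49) and Myog (1.29) were among those that rose, and Mef2d (-0.61) and Mef2a (-0.38) fell. Myog was lower again when oligomycin was combined with piericidin (-1.31 against oligomycin), BAM15 (-1.26) or 5% oxygen (-0.79). Of 10 agrin, ErbB and basal lamina genes 2 rose and 5 fell (median -0.20), Erbb2 by -1.69 and Colq by -1.31, and of 22 scaffold genes 4 rose and 6 fell (median -0.04). Erbb2 differed by 1.50 and Ache by 1.25 with oligomycin in 5% oxygen against oligomycin in ambient oxygen.

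Myotubes carrying adenovirus gave a separate measurement of the oligomycin response. Dok7 was 57.8 and 57.1 CPM with DMSO and 72.8 and 73.2 with oligomycin in GFP myotubes (0.34 ± 0.09, adjusted p = 0.00923), and 55.1, 63.9 and 52.6 and 64.9, 69 and 71.6 CPM in LbNOX myotubes (0.27 ± 0.07, adjusted p = 0.00816). Musk fell in both (-0.32 ± 0.08, adjusted p = 0.0111 and -0.41 ± 0.07, adjusted p = 0.000328), as did Lrp4 (-0.43 ± 0.10, adjusted p = 0.00591 and -0.48 ± 0.08, adjusted p = 0.000357) and Chrna1 (-0.28 ± 0.05, adjusted p = 0.00154 and -0.24 ± 0.04, adjusted p = 0.000703). In each of these the treated and control samples did not overlap. Chrng was called in LbNOX myotubes, at -0.12 ± 0.04 (adjusted p = 0.0476). The calls were 4 of 9 in GFP myotubes, against 25.8% of 12395 genes, and 5 of 9 in LbNOX myotubes, against 31.8%. Dok7 in GFP myotubes lost its call without oligomycin replicate 2 (0.31). Musk in GFP myotubes lost its call on leaving out any 1 of DMSO replicate 1 and oligomycin replicate 1 (-0.28). Lrp4 in GFP myotubes lost its call without DMSO replicate 2 (-0.29). Chrng in LbNOX myotubes lost its call on leaving out any 1 of DMSO replicates 1 and 2 and oligomycin replicates 2 and 3 (-0.12 to -0.10), and with no filter (adjusted p = 0.0829).

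No difference of these genes between LbNOX and GFP myotubes was resolved. With DMSO, edgeR called none of the 9 members between LbNOX and GFP myotubes, against 0.00807% of all genes (1 gene); none had an unadjusted p under 0.05, beside 749 of 12395 genes, and DESeq2 called 0 of the 9 and 12 genes in all. The difference between their oligomycin responses was also called for none, against 0% of all genes (0 genes at the adjusted threshold, 529 at an unadjusted p under 0.05, and 1 by DESeq2); 1 member, Chrnb1, had an unadjusted p under 0.05 and DESeq2 called 0. For Dok7 this difference was -0.07 ± 0.11 and for Musk -0.09 ± 0.11 (log2, SE). With piericidin, Chrnd fell in GFP myotubes from 375 and 345 to 304 and 319 CPM (-0.22 ± 0.05, adjusted p = 0.0325), 1 of 9 members against 3.08%. In LbNOX myotubes it fell from 363, 373 and 359 to 302, 309 and 322 CPM (-0.24 ± 0.04, adjusted p = 0.00323), with Chrng lower (-0.17 ± 0.04, adjusted p = 0.0234) and Rapsn higher (0.28 ± 0.05, adjusted p = 0.00482), 3 of 9 against 6.77%. The 5 transduced DMSO samples held Chrnd at 345 to 375 CPM, above the 275 to 278 CPM of the 3 untransduced ones; the virus and the experiment cannot be told apart, and no test was run. Chrnd in GFP myotubes lost its call on leaving out any 1 of DMSO replicate 1 and piericidin replicates 1 and 2 (-0.27 to -0.15), and with only the groups compared (adjusted p = 0.312). Chrng in LbNOX myotubes lost its call on leaving out any 1 of DMSO replicates 1 and 2 and piericidin replicates 2 and 3 (-0.18 to -0.16).

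In day 1 cells Dok7 was not called with oligomycin, while Musk, Chrna1, Rapsn and Chrnb1 fell. Dok7 stood at 55.7, 57.5 and 65.4 CPM with DMSO and 54.1, 52.4 and 56.1 with oligomycin, overlapping (-0.13 ± 0.07, adjusted p = 0.249). Musk fell from 123, 134 and 127 to 106, 99.96 and 90.2 CPM (-0.37 ± 0.06, adjusted p = 0.00133), Chrna1 from 1165, 1208 and 1219.9 to 984, 981 and 1013 (-0.26 ± 0.03, adjusted p = 0.000129), Rapsn from 193, 204 and 197 to 169.9, 179 and 171 (-0.18 ± 0.04, adjusted p = 0.00738) and Chrnb1 from 142, 131 and 146 to 119, 123 and 127 (-0.18 ± 0.06, adjusted p = 0.0488), none with overlap. These were 4 of 8 members tested, all lower, against 20.7% of 11827 genes. In the same samples the muscle markers split. Myog (0.44) was higher, Myh8 (-0.57), Myh3 (-0.38), Ckm (-0.18) and Mymk (-0.15) were lower, and Acta1 and Tnnt3 were not called. Of the proliferation markers Mki67 (-0.44) and Top2a (-0.29) were lower and Ccnb1 and Cdk1 were not called. The part of either list in the members' changes was not tested. With piericidin edgeR called none of the 8, against 2.75%; Rapsn alone had an unadjusted p under 0.05, at 0.12 ± 0.04 (adjusted p = 0.163), beside 1862 of 11827 genes, and DESeq2 called 0 of the 8 and 364 genes in all. Chrne was not tested at day 1. The responses of day 1 cells were not tested against those of the other states. Chrnb1 at day 1 lost its call on leaving out any 1 of DMSO replicates 1 and 3 and oligomycin replicates 1 and 2 (-0.18 to -0.14), and with no filter, the DESeq2 Wald test or only the groups compared (adjusted p = 0.0592 to 0.0772).

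Blocking mitochondrial translation for 48 hr lowered Chrna1 in both kinds of myoblast tested. It stood at 166 and 169.7 CPM with DMSO and 117 and 128 with chloramphenicol in luciferase cells (-0.41 ± 0.07, adjusted p = 0.0116), and at 120.3 and 136 and 87.6 and 94.5 CPM in LbNOX cells (-0.49 ± 0.08, adjusted p = 0.0235). Dok7 was 8.65 and 7.73 CPM with DMSO and 4.19 and 3.32 with chloramphenicol in luciferase cells (-1.08 ± 0.25, adjusted p = 0.0303), and 8.73 and 7.51 and 5.09 and 6.73 CPM in LbNOX cells (-0.46 ± 0.24, adjusted p = 0.446). With 2 samples a group, the calls were 2 of 8 members tested against 8.45% of 11702 genes and 1 of 8 against 0.931%. Chrnd passed the filter here through the luciferase groups and Chrng through the luciferase DMSO group. Chrna1 in luciferase cells lost its call on leaving out any 1 of chloramphenicol replicate 1 and DMSO replicate 2 (-0.40 to -0.36). Chrna1 in LbNOX cells lost its call on leaving out any 1 of chloramphenicol replicates 1 and 2 and DMSO replicate 2 (-0.55 to -0.41), and with only the groups compared (adjusted p = 0.0733). Dok7 in luciferase cells lost its call on leaving out any 1 of chloramphenicol replicates 1 and 2 and DMSO replicates 1 and 2 (-1.27 to -0.92), and with the DESeq2 Wald test or only the groups compared (adjusted p = 0.061 to 0.0629).

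No myoblast condition reached the level of any day 1 or myotube condition for Chrna1, Musk, Rapsn, Lrp4 or Dok7, while day 1 and myotube conditions overlapped for all of these but Chrna1. The mean of Chrna1 ran over 91 to 243 CPM in the 17 myoblast conditions, 993 to 1197 in the 3 day 1 conditions and 1205 to 1525 in the 15 myotube conditions. The corresponding ranges were 14.8 to 31.9, 98.8 to 128 and 85.2 to 148 CPM for Musk, 31.9 to 58.4, 173 to 215 and 131 to 179 for Rapsn, 5.67 to 13.6, 62.5 to 70.5 and 58.2 to 102 for Lrp4 and 1.45 to 9.19, 54.2 to 59.5 and 53.8 to 82.4 for Dok7. Dok7 was highest in myotubes with oligomycin and lowest in luciferase myoblasts with piericidin, and Lrp4 was highest in myotubes in 5% oxygen and lowest in the same luciferase myoblasts. The median coefficient of variation between replicates lay between 3.98% (Rapsn) and 21.3% (Chrne) over the conditions where a gene reached 1 CPM. The highest value in 1 condition was 56.7% for Chrnd, 53.2% for Chrng, 46.5% for Chrne, 44.9% for Dok7 and 34.9% for Lrp4. For the other members it lay between 9.4% (Chrna1) and 24.8% (Musk).

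**Figure D4:**
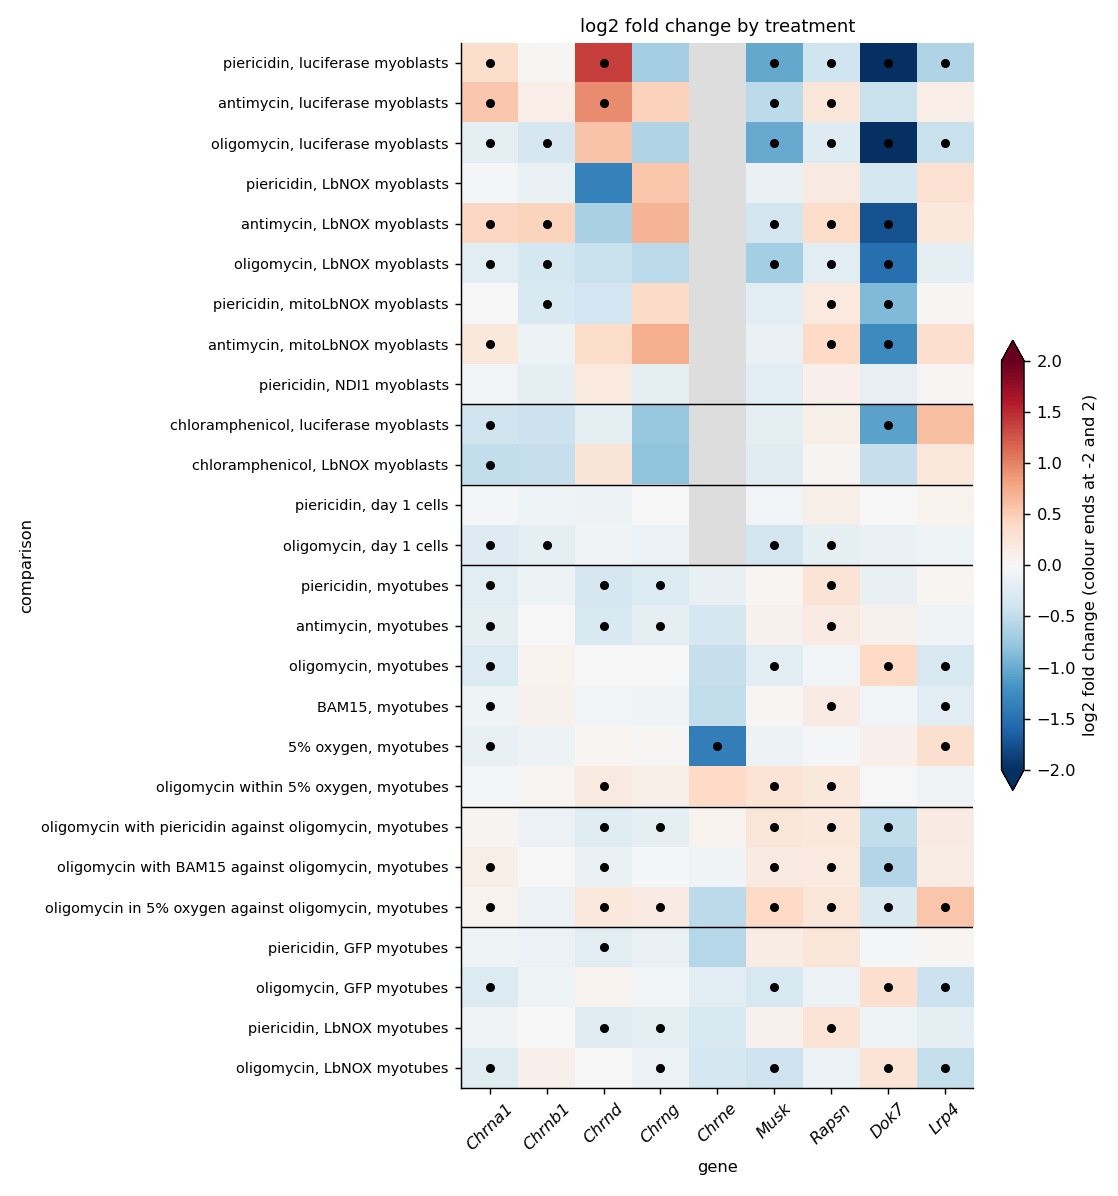
Log2 fold change of each member (columns) in each comparison of a treatment with its control (rows), in red where higher and in blue where lower; the colour ends at -2 and 2, a dot marks an adjusted p under 0.05 and grey marks a gene that was not tested. Dok7 is blue with a dot under piericidin (-2.38) and oligomycin (-2.21) in luciferase myoblasts and red with a dot under oligomycin in myotubes (0.40), and the dot of Chrne lies at 5% oxygen (-1.38).

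The genes most like 4 of the members over the 35 conditions, by Pearson's r of log2(CPM + 1) means among 9676 genes, were as follows. For Chrna1 they were Chrnb1 (r = 0.9965), the integrin Itga7 (0.9941) and Jsrp1 (0.9933), for Chrng the troponins Tnnt1 (0.999) and Tnnt3 (0.9985) and the calcium pump Atp2a1 (0.9988), for Musk Trim55 (0.9892), Klhl24 (0.9888) and Col3a1 (0.987), and for Lrp4 the dystroglycan gene Dag1 (0.9928), Dclk1 (0.991) and Neurl1a (0.9898). Among the members r ran down to 0.748 for Chrne with Rapsn. The points share cell state and control samples, so these values describe the state difference and carry no test.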

How the data were processed

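RNA-seq of 96 C2C12 samples was used. The authors prepared polyA-selected, unstranded Smart-seq2 libraries, sequenced them on a NextSeq 500 (demultiplexing with bcl2fastq 2.20.0.422, per the submitters' processing notes), pseudo-aligned reads to Ensembl transcripts of GRCm38.p6 and the transgenes (kallisto 0.44, corrected for bias), and summed estimated counts to genes with tximport. The deposited table holds these unnormalized estimated counts as whole numbers; estimation shares reads between overlapping genes, and short reads limit how well overlapping or similar transcripts are separated. Groups came from the sample labels. The 4 transgene rows were left out before library sizes were taken. Of 87 pairs of replicates, 0 were identical. The members and lists were chosen with earlier results of these data known. The test for each comparison was edgeR's quasi-likelihood F test (version 4.0.16, with limma 3.58.1, in R 4.3.3) with TMM normalization, in 6 fits and 42 comparisons, and a gene entered a fit where all replicates of 1 or more of its conditions reached 16 counts. P-values were adjusted over all genes tested in a comparison (Benjamini-Hochberg, two-sided, threshold 0.05), and a gene under it is said to be called; SE is the absolute log2 fold change over the square root of F. The study's methods used DESeq2, which was run as an alternative (1.42.0). A fit is of 1 mean per condition, and the spread is shared within a fit: states with inhibitors, myoblasts at 10 hr, untransduced myotubes, transduced myotubes, day 1 cells, and myoblasts at 48 hr. Named list genes were, per comparison, at most 2 in each direction with the largest change, taken from called genes whose mean count reached 50. Myog, and the markers named in 5% oxygen, at day 1 and in myotubes with antimycin or oligomycin, were chosen after their values were seen. Counts between states cover genes that passed this filter in at least 1 condition of each state compared. The scripts were tested on simulated counts. Other alternatives were DESeq2 size factors, no filter, only the groups compared, the replicate number as a block, an outer-well term, and leaving out each library. No comparison columns of the authors were used. The replicate numbers did not pair the samples.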

Additional observations from a re-analysis of the deposited data

Results flagged for a closer look

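The following differences are listed because the response to 1 treatment differed between 2 kinds of cells, by an edgeR test of the difference itself (adjusted p under 0.05); each value is a difference of log2 fold changes, and no explanation is given. Between myotubes and luciferase myoblasts, the response to piericidin differed for Chrna1 (-0.52), Chrnd (-1.66), Musk (1.10), Rapsn (0.71), Dok7 (2.26) and Lrp4 (0.69). The response to antimycin differed between these states for Chrna1 (-0.68), Chrnd (-1.22), Musk (0.65) and Dok7 (0.56), and the response to oligomycin for Chrnb1 (0.41), Musk (0.79), Rapsn (0.21) and Dok7 (2.59). Between LbNOX and luciferase myoblasts, the response to piericidin differed for Chrna1 (-0.37), Chrnd (-2.72), Musk (0.88), Rapsn (0.58), Dok7 (2.02) and Lrp4 (0.92), and the response to antimycin for Chrnd (-1.60) and Dok7 (-1.29). Between myotubes in 5% and in ambient oxygen, the response to oligomycin differed for Chrna1 (0.23), Musk (0.50), Rapsn (0.26) and Dok7 (-0.39); that test was chosen after the values were seen. Of all genes present in both states, 50.9%, 52.5% and 32.1% were called for piericidin, antimycin and oligomycin between myotubes and myoblasts. Between LbNOX and luciferase myoblasts the shares of all genes were 44.3% for piericidin and 51.5% for antimycin. Between oxygen levels the share was 17.4%. Calls lost in other fits, Rapsn under oligomycin (0.21) among them, are named with each result above. The myotubes were not transduced and the myoblasts were, so for the first 3 sets state and transgene cannot be told apart. No group had 4 or more samples, so single samples were not tested for standing apart.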

How the results depend on the processing

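No log2 fold change of a called member changed sign under any alternative. Of 149 calls of members, 145 kept their side of the threshold with DESeq2 size factors, 143 with the DESeq2 Wald test, 122 with no filter on low counts, 130 with only the groups compared in the fit and 145 with the replicate block, 137 of 145 with an outer-well term, and 108 in every fit that left out 1 library (for the differences between myotubes and myoblasts, 1 replicate number in all 4 groups). The outer-well term could not be fitted for the 2 chloramphenicol comparisons. The mean CPM of the 9 members in the DMSO groups of the 3 states moved by less than their replicate SD with DESeq2 size factors. Over all conditions where a member's mean was above 1 CPM, that mean with size factors was 96% to 104.3% of the TMM value. The cause of a lost call was not tested.

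The number of members called moved by over 1.5 times as follows. With an outer-well term it was 2 for oligomycin response in myotubes minus myoblasts (from 4), 1 for BAM15 in myotubes (from 3) and 2 for piericidin in GFP myotubes (from 1). With no filter it was 2 for antimycin in luciferase myoblasts (from 4), 1 for piericidin in mitoLbNOX myoblasts (from 3), 0 for mitoLbNOX against luciferase with DMSO (from 1), 0 for NDI1 against luciferase with DMSO (from 2), 1 for antimycin response in LbNOX minus luciferase myoblasts (from 2), 1 for BAM15 in myotubes (from 3), 1 for oligomycin with BAM15 against oligomycin in myotubes (from 5) and 1 for oligomycin within 5% oxygen (from 3). With DESeq2 size factors it was 1 for piericidin in mitoLbNOX myoblasts (from 3) and 0 for mitoLbNOX against luciferase with DMSO (from 1). With the DESeq2 Wald test it was 1 for piericidin in mitoLbNOX myoblasts (from 3), 2 for piericidin in GFP myotubes (from 1) and 1 for chloramphenicol in luciferase myoblasts (from 2). With only the groups compared in the fit it was 1 for piericidin in mitoLbNOX myoblasts (from 3), 1 for LbNOX against luciferase with DMSO (from 2), 0 for mitoLbNOX against luciferase with DMSO (from 1), 0 for NDI1 against luciferase with DMSO (from 2), 1 for oligomycin within 5% oxygen (from 3), 0 for piericidin in GFP myotubes (from 1), 1 for chloramphenicol in luciferase myoblasts (from 2) and 0 for chloramphenicol in LbNOX myoblasts (from 1). With the replicate block it was 0 for piericidin in GFP myotubes (from 1) and 1 for chloramphenicol in luciferase myoblasts (from 2). The block moved no other such count, and the 4 calls lost with it were those of Chrnd with oligomycin and BAM15 against oligomycin, Chrng with oligomycin in LbNOX myotubes, Chrnd with piericidin in GFP myotubes and Dok7 with chloramphenicol in luciferase myoblasts (adjusted p = 0.0525 to 0.0631). The replicate numbers did not pair the samples: same-numbered samples had mean residual correlations of -0.041 to 0.054 in the 6 fits, and 19 of 37 myoblast and 8 of 27 myotube libraries correlated best with their own number. Leaving out 1 library, or 1 replicate number in all 4 groups for the differences between myotubes and myoblasts, gave 2 to 3 for oligomycin response in myotubes minus myoblasts, 0 to 1 for piericidin in LbNOX myoblasts, 0 to 2 for piericidin in mitoLbNOX myoblasts, 0 to 1 for mitoLbNOX against luciferase with DMSO, 0 to 2 for NDI1 against luciferase with DMSO, 1 to 3 for antimycin response in LbNOX minus luciferase myoblasts, 1 to 3 for BAM15 in myotubes, 3 to 4 for oligomycin with BAM15 against oligomycin in myotubes, 1 to 2 for oligomycin within 5% oxygen, 0 to 1 for piericidin in GFP myotubes, 0 to 1 for chloramphenicol in luciferase myoblasts and 0 to 1 for chloramphenicol in LbNOX myoblasts. Where a lone sample remained in a group, it was assumed to vary like the others.

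Over all genes, the number called moved by over 1.5 times for myotubes against day 1 cells 4549 (outer well 2945), oligomycin response in myotubes minus myoblasts 3702 (outer well 2316), piericidin in LbNOX myoblasts 1063 (only these groups 558), piericidin in NDI1 myoblasts 1 (no filter 538, DESeq2 6, only these groups 0), LbNOX against luciferase with DMSO 319 (only these groups 169), mitoLbNOX against luciferase with DMSO 209 (no filter 532, only these groups 90), NDI1 against luciferase with DMSO 548 (only these groups 226), oligomycin within 5% oxygen 532 (only these groups 263), piericidin in GFP myotubes 382 (only these groups 27), piericidin in LbNOX myotubes 839 (no filter 1347), LbNOX against GFP with DMSO 1 (no filter 184, DESeq2 12, block 0, only these groups 0), oligomycin response in LbNOX minus GFP myotubes 0 (no filter 199, DESeq2 1), piericidin in day 1 cells 325 (no filter 613), chloramphenicol in luciferase myoblasts 989 (only these groups 645) and chloramphenicol in LbNOX myoblasts 109 (no filter 694, DESeq2 174, only these groups 69). Depth limits Chrnd and Chrng in myoblasts (at most 58 counts a library) and Chrne in all states (at most 92).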
